A study of Zea mays with 3 samples.

Results

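The genes described here are 8 of the 42034 probes on the array, with 1 probe each. They are annotated members of a list of 21 transcripts that the study proposed as markers of pluripotency in the youngest maize anthers. The study picked the list for transcripts that fell as primordia shorter than any anther in these files took on their first cell identities, and that stayed low or undetected later. Those young anthers are not analysed here, so a high early level could not be checked. The 1.0 mm arrays of these files may have entered the requirement of a low later level, so a level at 1.0 mm is not independent of the choice. The other 13 transcripts of the list serve for comparison, 17 of the 21 having an annotation other than unknown function.

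Two-colour arrays compared 2 maize lines, labelled Mu-active and Mu-inactive, in whole anthers 1.0, 1.5 and 2.0 mm long. Each length had 4 arrays, with both lines on every array. Mu elements are a family of DNA transposons whose movement depends on the element MuDR, and in an inactive line that machinery is silent. Plants of both lines were grown in the field, received no treatment and were sampled as whole anthers, so that fewer cells of a type and less RNA per cell cannot be told apart. The labels name no inbred background, no allele and no plant for these 3 comparisons. The p-values below therefore measure the spread among arrays, which may be technical.

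A maize anther begins as a small primordium of epidermis over a few internal cells that can still take several fates. Germinal cells are set apart first, signals from them pattern the surrounding cells into wall layers, and the germinal cells later enter meiosis inside a wall that includes the tapetum. These arrays show the later course of such early transcripts, in anthers that already hold all their cell types. The 8 genes have varied roles. GRMZM2G529859 encodes yabby15, of a plant family of transcription factors that in Arabidopsis act on the outer side and blade growth of lateral organs. GRMZM2G019686 encodes a flowering promoting factor 1 (FPF1) protein, a small protein first known from mustard that hastens flowering in Arabidopsis together with gibberellin. Methyl esterase 1 (GRMZM2G022934) belongs to enzymes that in Arabidopsis free hormones such as salicylate, jasmonate and auxin from their methyl esters. β-glucosidase 13 (GRMZM2G014844) is of the enzymes that release glucose from β-glucosides, and adenine phosphoribosyltransferase 2 (GRMZM2G071846) of those that return adenine, and in Arabidopsis cytokinin bases, to nucleotides. GRMZM5G804575 is annotated as a nodulin-like 5NG4 protein, of a family of membrane proteins named after a pine gene that responds to auxin. The remaining pair are the Bowman-Birk inhibitor BBTI8 (GRMZM2G114552), a small inhibitor of serine proteases, and a leucine-rich repeat (LRR) receptor-like protein (GRMZM2G166413), of a class of cell surface receptors.

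Normalized intensities of a group correlated between arrays at r = 0.938 to 0.983. The arrays came on 3 slides, scanned on 2 days. The 4 arrays of a length shared 1 slide, so that anther length and slide cannot be told apart. No label ties an array to a dye. The lines were assigned from the deposited log2 ratio of each length, read as Mu-active over Mu-inactive, with which the red over green ratio correlated at r = -0.60 to -0.74 on arrays 1 and 2 and at 0.45 to 0.64 on arrays 3 and 4 of each length. Mu-inactive is therefore taken as red on arrays 1 and 2 and as green on arrays 3 and 4. Reading the labels' replicate numbers as array numbers would exchange the 2 lines in every value below. Of the 12 estimates from the 4 probes named after MuDR at the 3 lengths, 10 were higher in Mu-active under the assignment used, up to 0.95 on the log2 scale at 2.0 mm (adjusted p = 0.136, limma). None passed an adjusted p of 0.05 (smallest 0.129), and at an unadjusted p under 0.05 there were 3, all higher in Mu-active. The meiosis genes used to check the germinal cells were detected by 5 or 6 of their 6 probes at every length in both lines. Over both lines their summed intensity was 806 to 1030 at 1.0 mm, 727 to 889 at 1.5 mm and 649 to 792 at 2.0 mm. In each line 5 of the 6 probes were lower at 2.0 than at 1.0 mm. For GRMZM2G129913, a meiosis gene of the study among them, the RefSeq names give another gene.

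The markers were still measurable in these anthers. A probe counted as ON when its intensity exceeded the mean of the array's negative controls by 3 SD in at least 3 of 4 arrays, which put the cutoff at 78.7 to 90.4. By that rule 46 of the 48 combinations of gene, line and length were ON. Both exceptions were the LRR receptor-like gene GRMZM2G166413 at 2.0 mm, above the cutoff in 2 of 4 arrays of each line. Hence 7 of the 8 genes were ON at all 3 lengths in both lines, and at 1.0 mm methyl esterase 1 and yabby15 stood far above their cutoffs. No spot of the 8 genes was saturated or marked as an outlier. The plot of intensities by length shows every array.

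**Figure D1:**
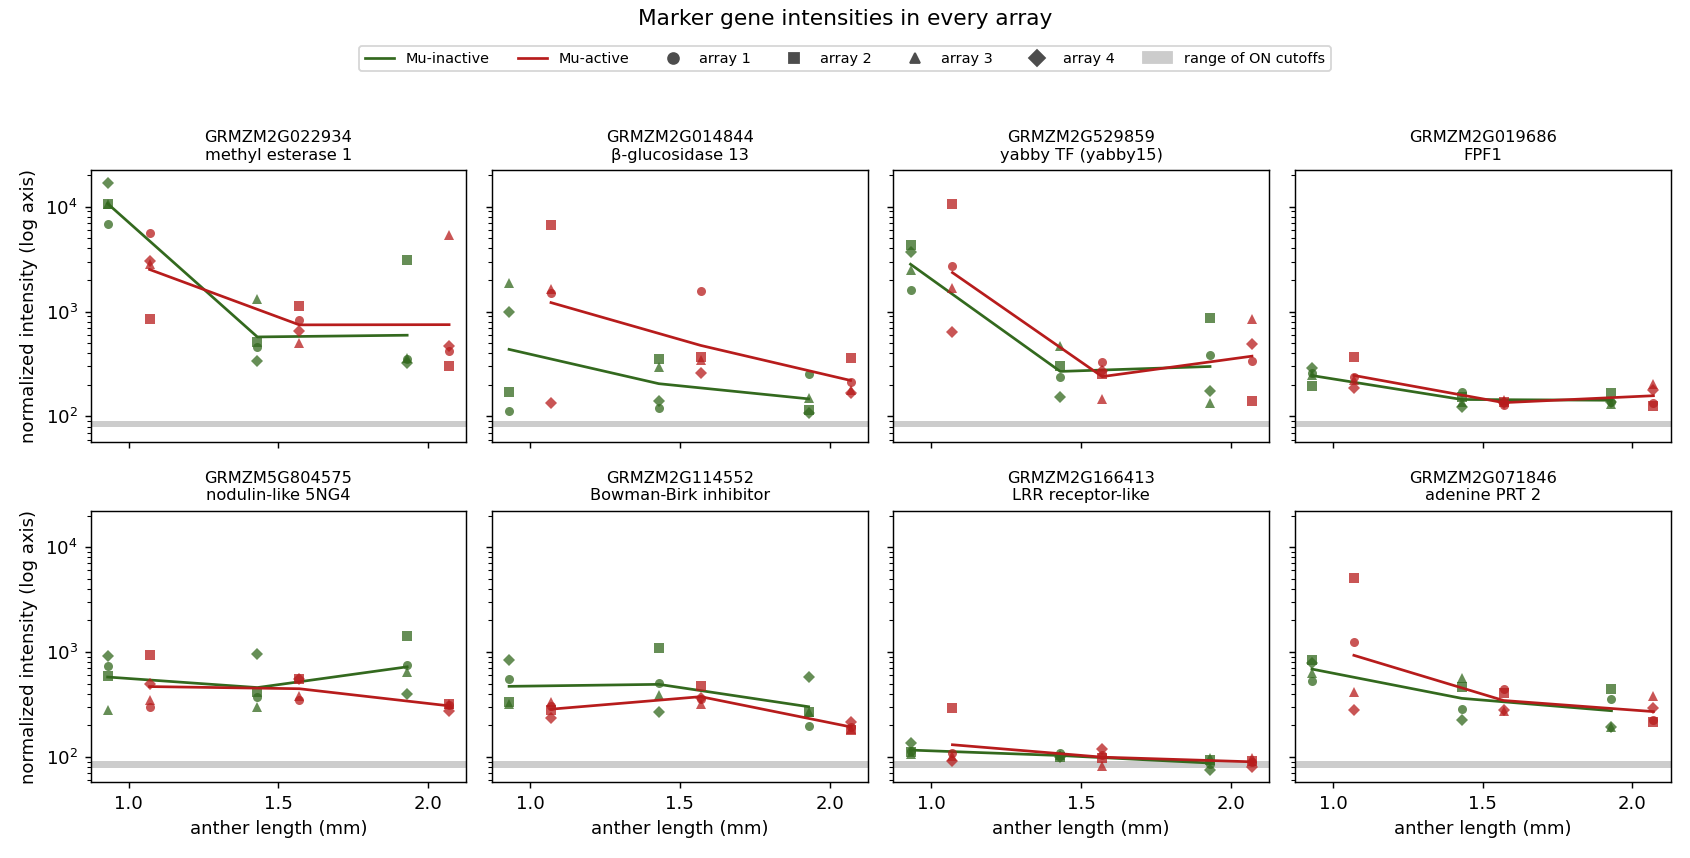
Normalized intensity (log axis) of the 8 marker genes in every array against anther length in mm, green for Mu-inactive and red for Mu-active, with lines through the geometric means and a grey band for the range of ON cutoffs. Methyl esterase 1 in Mu-inactive and yabby15 in both lines start high at 1.0 mm and lie lower at 1.5 and 2.0 mm, FPF1 makes a small step down, and the LRR gene lies near the band throughout.

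Yabby15 (GRMZM2G529859) fell after 1.0 mm in both lines, by 9.45 to 10.5-fold in Mu-inactive and by 6.26 to 9.81-fold in Mu-active. In Mu-inactive anthers of 1.0 mm the 4 arrays gave 1605, 4347, 2502 and 3660, a mean of 3028 ± 1216 (SD, n = 4). At 1.5 mm they gave 236, 301, 474 and 155, and at 2.0 mm 389, 872, 135 and 175. All the later arrays lay below all the 1.0 mm arrays of that line. Mu-active anthers gave 2728, 10490, 1660 and 644 (mean 3880 ± 4487) at 1.0 mm, followed by 333, 252, 146 and 269 at 1.5 mm and by 341, 142, 840 and 490 at 2.0 mm. Here the spread at 1.0 mm was 16.3-fold from the lowest to the highest array, and array 4 at 1.0 mm (644) lay below array 3 at 2.0 mm (840.2). In Mu-inactive the log2 change was -3.40 ± 0.88 (SE) from 1.0 to 1.5 mm (adjusted p = 0.0185, limma separate-channel fit, Benjamini-Hochberg over all probes) and -3.24 from 1.0 to 2.0 mm (adjusted p = 0.0154). In Mu-active it was -3.29 (adjusted p = 0.0244) and -2.65 (adjusted p = 0.0447). Between 1.5 and 2.0 mm the change was 0.16 in Mu-inactive and 0.65 in Mu-active, neither past the threshold. The Mu-active call to 2.0 mm was lost with 75th percentile scaling (adjusted p = 0.0705), with 1 fit per line (0.0502) and, chosen after seeing the data, without arrays 2 and 3 of 2.0 mm (0.0808). The calls also depended on single arrays. Leaving out an array number at all 3 lengths together ended the Mu-inactive calls for arrays 1, 3 and 4 (adjusted p = 0.096, 0.0633 and 0.0945 to 1.5 mm, and 0.0601, 0.11 and 0.0841 to 2.0 mm), with log2 changes of -2.87 to -3.74. It ended the Mu-active calls for arrays 1, 2 and 3 (adjusted p = 0.123, 0.114 and 0.134 to 1.5 mm, and 0.209, 0.306 and 0.0732 to 2.0 mm). The smallest of these Mu-active changes was -1.45, from 1.0 to 2.0 mm without array 2, where the main value was -2.65.

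Methyl esterase 1, GRMZM2G022934, fell 18.7-fold from 1.0 to 1.5 mm in Mu-inactive, the steepest change among the 8 genes. Its 1.0 mm arrays gave 6857, 10560, 10700 and 16890 (mean 11250 ± 4159, n = 4). The arrays of 1.5 mm gave 462, 518, 1321 and 340.3, and those of 2.0 mm gave 353, 3077, 358 and 322. No later array reached the lowest 1.0 mm array, although array 2 at 2.0 mm was far brighter than the other 3. The log2 change was -4.22 ± 0.99 to 1.5 mm (adjusted p = 0.0103) and -4.17 to 2.0 mm (18.0-fold, adjusted p = 0.00645). Without array 4 at every length both calls were lost (-3.76, adjusted p = 0.115, and -3.66, adjusted p = 0.0974), and without array 1 the first was (-4.33, adjusted p = 0.0523). In Mu-active the same probe gave 5566, 847, 2842 and 3004 at 1.0 mm, 837, 1126, 503 and 656 at 1.5 mm, and 421, 302.5, 5315 and 467 at 2.0 mm. Its lowest 1.0 mm array (array 2) and its highest 2.0 mm array (array 3) crossed, and the log2 changes of -1.75 ± 0.99 to either length did not pass the threshold (adjusted p = 0.286 and 0.257). Leaving out arrays 2 and 3 of 2.0 mm, a choice made after seeing the data, gave -2.48 in Mu-active (adjusted p = 0.0429). The steeper value in Mu-inactive was not shown to differ from that in Mu-active. The change of the line difference from 1.0 to 1.5 mm was 2.47 ± 1.33 (adjusted p = 0.679).

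FPF1, GRMZM2G019686, stepped down by less than 2-fold. Mu-inactive gave 262, 194, 247.5 and 288 at 1.0 mm, then 172, 152, 137 and 124 at 1.5 mm and 137, 166, 131 and 138.5 at 2.0 mm. Mu-active gave 237, 369, 223 and 187 at 1.0 mm, 128, 136, 144 and 134 at 1.5 mm, and 134.5, 126, 202 and 179 at 2.0 mm. All later arrays lay below all 1.0 mm arrays except in Mu-active at 2.0 mm, where array 3 was above the lowest 1.0 mm array. The log2 changes from 1.0 to 1.5 mm were -0.76 ± 0.23 in Mu-inactive (1.69-fold, adjusted p = 0.0407) and -0.86 in Mu-active (1.82-fold, adjusted p = 0.0251). From 1.0 to 2.0 mm they were -0.78 (1.72-fold, adjusted p = 0.0249) and -0.64 (1.56-fold, adjusted p = 0.0641). Of these, 3 passed the adjusted p alone, and none reached the 2-fold limit that a call between lengths also asked for. Among the alternatives, which include dropping that limit, up to 4719 of all probes were called in Mu-inactive and 3976 in Mu-active to 1.5 mm. The main fit called 712 and 505, in either direction. To 2.0 mm in Mu-inactive up to 7133 were called, beside 1862 in the main fit. With 75th percentile scaling none of the 3 FPF1 changes passed (adjusted p = 0.0971, 0.0679 and 0.112). Leaving out array 1 or array 3 at all lengths also ended each of them (adjusted p = 0.136 to 0.204), and leaving out array 4 ended both in Mu-inactive (0.195 and 0.113). The spread among the Mu-active arrays of 1.0 mm was itself 1.97-fold.

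Adenine phosphoribosyltransferase 2 (GRMZM2G071846) and β-glucosidase 13 (GRMZM2G014844) were lower on average after 1.0 mm in both lines, without passing the test. The former gave 525, 847, 634 and 793 in Mu-inactive at 1.0 mm and 353, 440, 193.5 and 191.5 at 2.0 mm, with no overlap. Mu-active arrays gave 1257, 5071, 417 and 281 at 1.0 mm and 225, 214, 377 and 294 at 2.0 mm, where array 4 of the shorter anthers fell among the longer ones. The log2 changes were -1.32 ± 0.66 (adjusted p = 0.194) and -1.78 (adjusted p = 0.0727). β-glucosidase 13 was the most uneven of the 8 genes. At 1.0 mm its probe gave 113, 172, 1869 and 996 in Mu-inactive and 1519, 6653, 1630 and 133 in Mu-active, up to 49.9-fold apart within a group. By 2.0 mm the values were 252, 116, 149 and 107, and 215, 364, 179 and 169. Log2 changes from 1.0 to 2.0 mm were -1.57 ± 0.98 (adjusted p = 0.311) and -2.47 (adjusted p = 0.0932). With array 4 of 1.0 mm left out, again after seeing the data, the Mu-active changes of both genes passed (-2.34, adjusted p = 0.0202, for the phosphoribosyltransferase and -3.39, adjusted p = 0.012, for the glucosidase). With array 2 of 1.0 mm left out instead they shrank to -0.98 (adjusted p = 0.274) and -1.81 (adjusted p = 0.249). Fitting each line alone also took the phosphoribosyltransferase past the threshold in Mu-inactive (adjusted p = 0.0218). A second probe paired with GRMZM2G014844 was not ON in any group, so the course of this gene rests on 1 probe.

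The nodulin-like gene GRMZM5G804575 and the inhibitor BBTI8 kept a moderate level throughout. GRMZM5G804575 gave 740.5, 591, 279.7 and 908 in Mu-inactive at 1.0 mm, 370.5, 415, 298 and 961 at 1.5 mm, and 750, 1427, 641 and 397 at 2.0 mm. In Mu-active it gave 298, 927, 349 and 499, then 348.5, 549, 377 and 551, and finally 312.5, 318, 322.5 and 276. The groups of different length overlapped, apart from Mu-active at 2.0 mm, whose 4 arrays all lay below those of 1.5 mm. Its log2 change from 1.0 to 2.0 mm was 0.32 ± 0.45 in Mu-inactive and -0.61 in Mu-active (adjusted p = 0.693 and 0.405). BBTI8 (GRMZM2G114552) gave 549, 334, 321 and 832 at 1.0 mm, 502, 1103, 392 and 269 at 1.5 mm, and 195, 269, 271 and 576 at 2.0 mm in Mu-inactive. Its Mu-active arrays were closer together, at 305, 281.5, 331 and 233, at 358, 477.5, 321 and 361, and at 193, 181, 185 and 217. Those of 2.0 mm lay below all the earlier ones. From 1.5 to 2.0 mm all later arrays lay below all earlier arrays for 2 of the 8 genes in Mu-active and 1 in Mu-inactive. No share of all probes was taken for that step. The change from 1.5 to 2.0 mm was -0.96 ± 0.40 on the log2 scale (adjusted p = 0.165) in Mu-active and -0.71 (adjusted p = 0.303) in Mu-inactive. Without array 4 at every length the latter was -1.32 and passed the threshold (adjusted p = 0.025).

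The LRR receptor-like gene GRMZM2G166413 was the dimmest relative to its cutoff. It gave 114, 111, 107 and 134 in Mu-inactive at 1.0 mm and 86.4, 93.0, 96.7 and 75.1 at 2.0 mm, groups that did not overlap. In Mu-active the 1.0 mm arrays gave 109, 290.2, 101 and 90.9 and the 2.0 mm arrays 90.2, 91.9, 97.2 and 80.6, with array 2 of 1.0 mm standing alone. The log2 changes were -0.41 ± 0.26 (adjusted p = 0.318) and -0.54 (adjusted p = 0.171). Scaling each array to its 75th percentile moved the median change of all probes from near 0 to between 0.48 and 0.51 for both changes from 1.0 mm. GRMZM2G166413 was the only one of the 8 genes whose sign then turned. Its changes became 0.20 to 1.5 mm and 0.06 to 2.0 mm in Mu-inactive, and 0.06 to 1.5 mm in Mu-active.

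Counted over the 8 genes, 2 fell in Mu-inactive from 1.0 to 1.5 mm, against 0.895% of all probes called lower, and 1 fell in Mu-active, against 0.583%. From 1.0 to 2.0 mm, 2 fell in Mu-inactive (1.92% of all probes) and 1 in Mu-active (2.15%). From 1.5 to 2.0 mm none was called in either line by limma, where 0.864% and 0.776% of all probes were called lower. Over that step 0 genes in Mu-inactive and 1 in Mu-active had an unadjusted p under 0.05, with no share of all probes taken at that threshold. No gene was called higher at a later length. The estimates were below 0 for 7 of 8 genes in both lines from 1.0 to 1.5 mm, for 7 in Mu-inactive from 1.0 to 2.0 mm and for 8 in Mu-active. Their median log2 change to 2.0 mm was -1.05 in Mu-inactive and -1.20 in Mu-active, beside -0.01 over all probes in each line. All 4 later arrays lay below all 4 arrays of 1.0 mm for 3 genes at 1.5 mm and 5 at 2.0 mm in Mu-inactive (9.57% and 10.0% of all probes), and for 2 and 1 genes in Mu-active (7.35% and 9.32%). The plot of changes with length shows that the step down lay between 1.0 and 1.5 mm for the genes that were called.

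**Figure D2:**
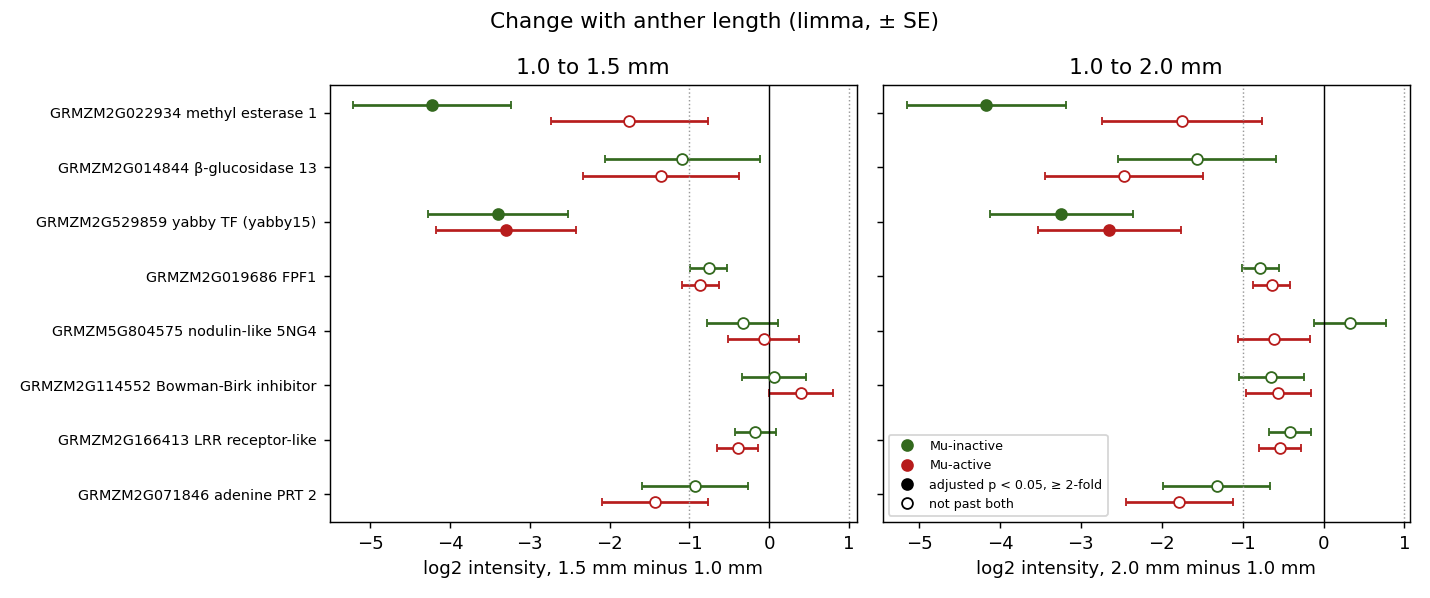
Log2 change of each gene from 1.0 to 1.5 mm (left) and from 1.0 to 2.0 mm (right), with ± SE from limma, green for Mu-inactive and red for Mu-active, filled where the adjusted p was below 0.05 and the change at least 2-fold. Filled points are methyl esterase 1 in Mu-inactive (-4.22 and -4.17) and yabby15 in both lines (-3.40, -3.29, -3.24 and -2.65), and dotted lines mark 2-fold.

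Between the lines none of the 8 genes differed at any length by the adjusted p of limma on within-array ratios. Of all probes 0.376% were called at 1.0 mm, 0.471% at 1.5 mm and 0.866% at 2.0 mm. At an unadjusted p under 0.05 the counts were 0, 0 and 1 of 8, with no share of all probes taken at that threshold. That 1 was GRMZM5G804575 at 2.0 mm, whose log2 Mu-active minus Mu-inactive values were -1.26, -2.17, -0.99 and -0.53 in arrays 1 to 4, lower in Mu-active in 4 of 4 arrays. The estimate was -1.24 ± 0.35 (2.36-fold, adjusted p = 0.169), and over the alternatives the adjusted p ran from 0.125 to 0.67. Its change of the line difference from 1.5 to 2.0 mm was -1.20 ± 0.50 (adjusted p = 0.738). Methyl esterase 1 at 1.0 mm was also lower in Mu-active in 4 of 4 arrays (-0.30, -3.64, -1.91 and -2.49), with an estimate of -2.09 ± 0.94 (adjusted p = 0.567). BBTI8 had estimates of -0.72, -0.39 and -0.64 at the 3 lengths and was lower in Mu-active in 3, 3 and 4 of 4 arrays (adjusted p = 0.594, 0.781 and 0.501). The other 5 genes lay between -0.27 and 1.48, the highest being β-glucosidase 13 at 1.0 mm (adjusted p = 0.806). The estimates were imprecise. A 2-fold difference is 1 on the log2 scale, and the SE of a single length was 0.94 for methyl esterase 1, 0.91 for β-glucosidase 13 and 0.84 for yabby15.

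Nor did the course with length differ between the lines by the test of that difference. None of the 8 genes passed for any pair of lengths, beside 0.00952% of all probes from 1.0 to 1.5 mm, 0.0523% from 1.0 to 2.0 mm and 0% from 1.5 to 2.0 mm. Unadjusted p values under 0.05 numbered 0, 0 and 1, again without a share of all probes. For several genes the sign of the ratio went with the dye on all 4 arrays of a length. At 1.0 mm the yabby15, phosphoribosyltransferase and β-glucosidase ratios were above 0 on arrays 1 and 2 and below 0 on arrays 3 and 4, so that the green channel was the brighter on all 4. At 2.0 mm yabby15, the phosphoribosyltransferase and FPF1 showed the opposite order on all 4 arrays. The fit holds 1 dye term per probe, common to all lengths.

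**Figure D3:**
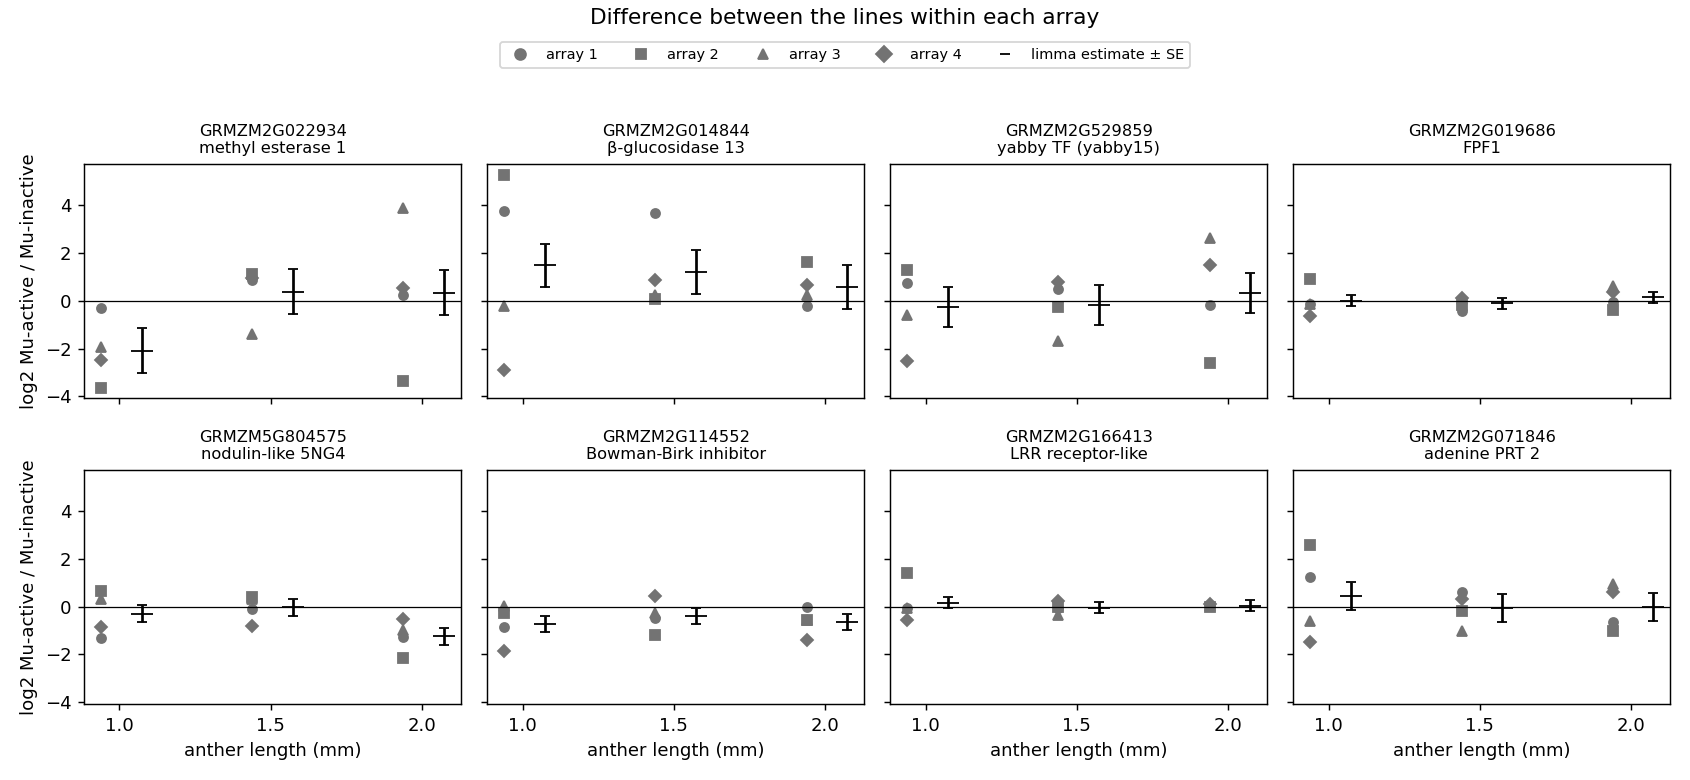
Log2 Mu-active over Mu-inactive of each gene within each array (grey symbols) against anther length in mm, with the limma estimate ± SE in black. The 4 symbols lie on 1 side of 0 for methyl esterase 1 at 1.0 mm, β-glucosidase 13 at 1.5 mm, and GRMZM5G804575 and BBTI8 at 2.0 mm, and on both sides for all other groups.

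The 8 genes did not vary independently from array to array. In Mu-active at 1.0 mm array 2 was the highest of the 4 at 6 of the 8 genes, with a mean log2 deviation from the group mean of 1.02, and array 4 was the lowest at 6, with -0.96. Array 3 of Mu-active at 2.0 mm was the highest at 6 genes (0.58), and array 2 of Mu-inactive at 2.0 mm at 5 (0.67). The 13 other markers moved the same way in these channels, with mean deviations of 0.89, -0.43, 0.38 and 0.34. Yabby15 and the phosphoribosyltransferase shared most of this variation. Their deviations from the group means correlated at r = 0.89 over the 24 channels, and those of the LRR gene with the phosphoribosyltransferase at 0.78, while BBTI8 reached at most 0.30 with any other. These values are descriptions over channels that share arrays and slides. Green tissue transcripts, summed over 2 photosynthesis probes, were 2520, 1710, 11200 and 24500 in arrays 1 to 4 of Mu-active at 1.0 mm, lowest in the array where the markers were highest and highest where they were lowest. At 2.0 mm in Mu-inactive the order ran the other way, with sums of 31600, 42500, 27200 and 21600, highest in array 2, where the markers were highest, and lowest in array 4, where their mean deviation was lowest (-0.35). In Mu-inactive at 1.0 mm the sum was 2370 to 4840, at 1.5 mm it was 4120 to 17100 over both lines, and at 2.0 mm 21600 to 53900. The highest sum fell in the array of lowest mean deviation in Mu-inactive at 1.0 mm (array 1, 4840 and -0.39) and Mu-active at 2.0 mm (array 2, 53900 and -0.33). At 1.5 mm the highest sums went with deviations of 0.275 in Mu-inactive (array 2, 15000) and 0.15 in Mu-active (array 2, 17100). The raw median signal over the mean of the negative controls also differed between these arrays. In Mu-active at 1.0 mm it was lowest in array 2 (1.49) and highest in array 4 (3.15). In Mu-inactive at 2.0 mm it was highest in array 2 (1.88), where the markers were highest. The part of green tissue or of signal over background in the course of the 8 genes was not tested. Without array 2 of 1.0 mm the Mu-active call of yabby15 was lost at both lengths (-2.53, adjusted p = 0.102, and -1.89, adjusted p = 0.181).

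**Figure D4:**
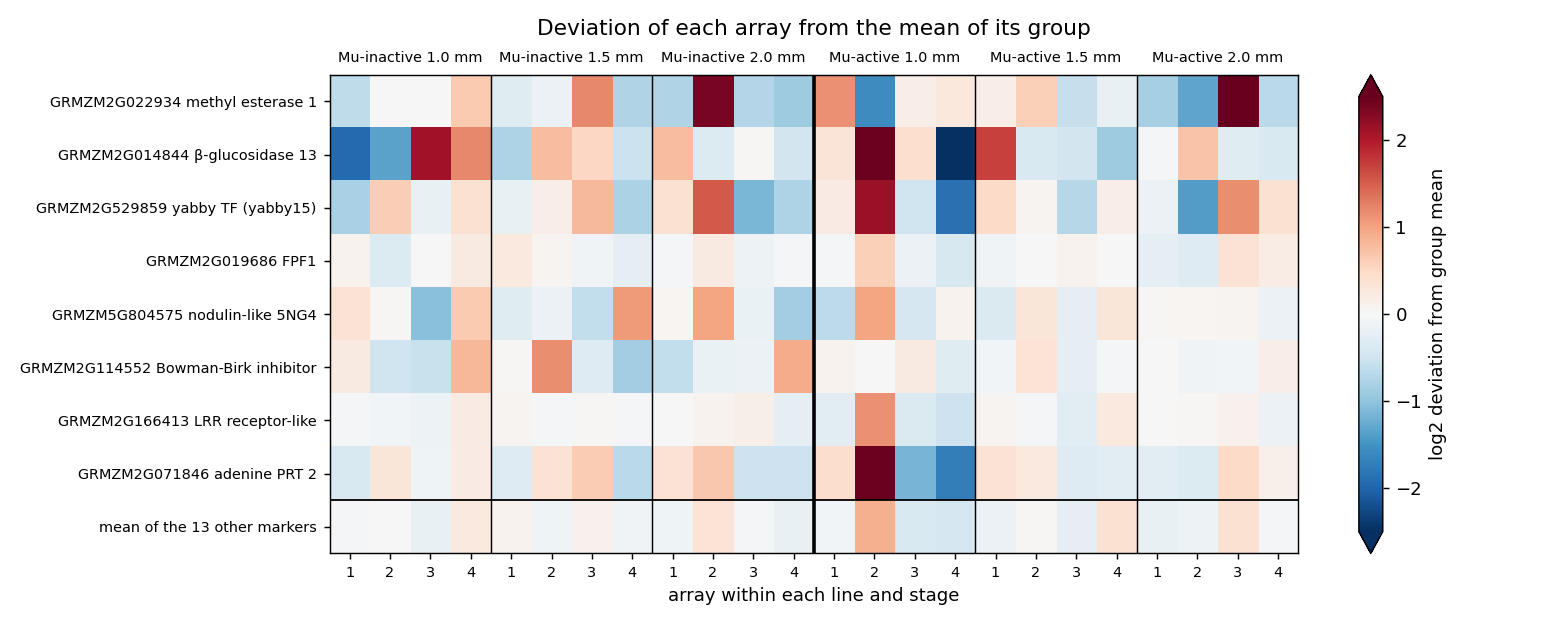
Log2 deviation of each array from the mean of its group (colour) for the 8 genes and, in the bottom row, for the mean of the 13 other markers, with the 4 arrays of each line and length side by side. Array 2 of Mu-active at 1.0 mm is red at 6 genes that lead their group (mean 1.02) and array 4 blue at 6 that trail it (mean -0.96).

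From 1.0 to 1.5 mm the 13 other markers of the list were mostly lower too, 11 of 13 in Mu-inactive and 10 in Mu-active, with a median log2 change of -0.50 in each line, beside -0.84 and -1.11 for the 8 genes. Their median change from 1.0 to 2.0 mm was 0.09 in Mu-inactive, with 6 of 13 lower, and -0.19 in Mu-active, with 10 lower. None of them was called lower from 1.0 to 2.0 mm in either line, and 1 was called higher in both. This was GRMZM2G070442, of unknown function, at 663 ± 164 in Mu-inactive and 603 ± 328 in Mu-active at 1.0 mm and at 4385 ± 1887 and 6216 ± 3949 at 2.0 mm (log2 2.67, adjusted p = 0.000345, and 3.35, adjusted p = 4.49e-05). Both calls of GRMZM2G070442 held in every alternative. From 1.0 to 1.5 mm TC314925 fell in Mu-inactive (-1.75, adjusted p = 0.0467), a call lost on leaving out any 1 array number (adjusted p = 0.226, 0.0875, 0.116 and 0.109 without arrays 1 to 4). GRMZM2G019260, annotated as a phosphomevalonate kinase of isoprenoid synthesis, rose in Mu-inactive over that step (1.53, adjusted p = 0.00079) and differed between the lines at 1.5 mm. There it was at 315 ± 64.1 in Mu-inactive and 124 ± 24.1 in Mu-active, lower in Mu-active in 4 of 4 arrays (-1.34, adjusted p = 0.0162). That difference lost its call without array 1, 3 or 4 (adjusted p = 0.203, 0.165 and 0.134), and with 75th percentile scaling, Aquantile or the deposited log10 ratios (0.0987, 0.0871 and 0.101). The auxin transporter GRMZM2G129413 changed by -0.89 in Mu-inactive and -0.99 in Mu-active from 1.0 to 2.0 mm (adjusted p = 0.181 and 0.131).

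Other probes matched to the 8 genes by a term in their annotation gave few calls. Of 6 further probes annotated as yabby genes, 1 of which is also among the 13 other markers, 1 fell in Mu-inactive from 1.0 to 2.0 mm and none in Mu-active, with medians of -0.63 and -0.36. The probe that fell was that of GRMZM2G106204 (YAB3), named after its values were seen, with -1.44 in Mu-inactive (adjusted p = 0.0288) and -0.71 in Mu-active (adjusted p = 0.311). The call was lost without array 1, 2 or 3 (adjusted p = 0.133, 0.08 and 0.07) and under both other scalings, while without array 4 of 1.0 mm the Mu-active change passed too (-1.08, adjusted p = 0.0102). A probe annotated to a fragment of the Yabby15 protein stayed close to the cutoff, with group means of 81.4 to 96.0, and could not check the main one. None of the 4 probes of 5NG4 and nodulin-like proteins or the 1 of another methyl esterase was called between 1.0 and 2.0 mm in either line. Nor was any of the 5 matched by the name β-glucosidase. All 5 were annotated as glucan endo-1,3-β-glucosidases, so they do not check the family of β-glucosidase 13. No further probe was annotated as a Bowman-Birk inhibitor, an adenine phosphoribosyltransferase or an FPF protein.

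The study assigned transcripts to positions in the anther from dissected anthers shorter than any analysed here. By that assignment yabby15 was the only one of the 8 genes on its list of 811 connective and vascular transcripts. Whether the 8 genes were on the other lists below was not counted. On that list 69 probes fell and 14 rose from 1.0 to 2.0 mm in Mu-inactive (median log2 -0.40), and 90 fell and 10 rose in Mu-active (median -0.40), where 1.92% and 2.15% of all probes fell. The middle layer and tapetum list of 955 probes had 52 that fell and 11 that rose in Mu-inactive (median -0.09) and 63 and 15 in Mu-active (median -0.12). The archesporial list of 1998 probes had 49 that fell and 91 that rose in Mu-inactive (median 0.02) and 62 and 102 in Mu-active (median -0.02). Among the 1075 epidermal and endothecial probes 40 fell and 140 rose in Mu-inactive (median 0.10), and 38 and 126 in Mu-active (median 0.09). Of all 42034 probes 1057 rose in Mu-inactive and 991 in Mu-active.

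The search for similar probes covered 7719 or 7720 of the 42034 probes, according to the gene. These were the probes that the study's supplementary tables, the marker list among them, pair with a gene model. Most of the array was therefore not searched, while markers with a gene model were. Across the 24 channels the probe of this pool whose log2 intensity followed a gene most closely was itself a marker for 3 of the 8 genes. The nearest probe to FPF1 among those paired with a gene model was yabby15 (r = 0.907), and the nearest to the LRR gene was the phosphoribosyltransferase (r = 0.847). The phosphoribosyltransferase itself was closest to GRMZM2G144581, another marker of the list, annotated as a nodulin MtN3 sugar transporter (r = 0.913). Yabby15 was closest to GRMZM2G123972 (r = 0.934), and 53 of the 7720 probes searched had r above 0.8 with it. The nearest to methyl esterase 1 was GRMZM2G309897 (r = 0.811), and to β-glucosidase 13 GRMZM2G013318 (r = 0.839). GRMZM5G804575 had no probe above 0.8, its nearest being GRMZM2G059308 (r = 0.697), and neither had BBTI8, whose nearest was GRMZM2G046101, a glucan endo-1,3-β-glucosidase (r = 0.705). These correlations follow anther length, line and array together, over channels that share slides.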

How the data were processed

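The data were 12 two-colour Agilent maize arrays, 4 at each of 3 anther lengths. The authors deposited scanner output of Agilent Feature Extraction, of which the median foreground intensity of each channel, the local background intensity, the log10 ratio and the spot flags (0 or 1) were used. A deposited table holds 1 log2 ratio per probe and length, whose scale, centring and direction are not stated, and served only to assign lines to dyes. The 2-step normalization stated in the study's methods was followed in limma 3.58.1 (R 4.3.3), with loess within arrays and quantile over all channels (the methods' "quartile" was read as quantile) and no background subtraction. Outlier-flagged spots (1 to 12 per array) were left out, as were 153 negative and 1264 positive control spots. Probes ON per channel numbered 27820 to 35646, and the raw median of a channel was 1.21 to 3.15 times that of its negative controls. The 12 arrays limit the precision.

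Changes with length came from limma's separate-channel fit with a dye term (intraspot correlation 0.451), called at adjusted p below 0.05 and at least 2-fold. Line differences came from limma on within-array log2 ratios over all 12 arrays, with a coefficient per length and a dye term, called at adjusted p below 0.05. P-values were adjusted by Benjamini-Hochberg over 42034 probes, and both fits were tested on simulated data. Alternatives were Aquantile and 75th percentile scaling, normexp, the deposited log10 ratios, no dye term, kept outliers, only ON probes, separate fits, other thresholds and leaving out arrays.

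The 8 genes and all lists were chosen with earlier results of these data known. Named besides them are other probes of their gene models, the 3 other markers with the largest 1.0 to 2.0 mm change in Mu-inactive, those past the line threshold, family probes called in both lines, and the probe nearest to each gene by Pearson correlation. GRMZM2G106204 falls outside this rule and was named after its values were seen. Marker, zone and family lists came from the study's supplementary tables and array annotation. RefSeq names (Zm-B73-REFERENCE-NAM-5.0) matched 7 of the 8 gene models. The genome build is not given in the sources used here, so no coordinates are printed. Figures were drawn with matplotlib 3.10.9 in Python 3.11.15.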

Additional observations from a re-analysis of the deposited data

Results flagged for a closer look

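In 9 of 72 groups of 4 arrays, 4 of them among the 48 groups of the 8 genes, 1 array stood apart from the other 3 by more than Dixon's 95% critical value. That value marks about 1 in 20 groups of normally distributed values by chance. The ratios were taken on linear intensities, all 9 marked arrays were the highest of their group, and the chance rate for such data was not tested. Methyl esterase 1 (GRMZM2G022934) was at 3077 in array 2 of Mu-inactive at 2.0 mm and at 5315 in array 3 of Mu-active at 2.0 mm. β-glucosidase 13 (GRMZM2G014844) was at 1554 in array 1 of Mu-active at 1.5 mm, and the LRR gene (GRMZM2G166413) at 290.2 in array 2 of Mu-active at 1.0 mm. Of the other markers, GRMZM2G070442 was at 12130 in array 3 of Mu-active at 2.0 mm and GRMZM2G129413 at 988.4 in array 2 of Mu-active at 1.0 mm. GRMZM2G019260 stood apart in 3 groups, at 117.6 in array 3 of Mu-inactive at 1.0 mm, 276.6 in array 2 of Mu-inactive at 2.0 mm and 163.4 in array 2 of Mu-active at 1.0 mm. Of the 9 values, 3 came from array 2 of Mu-active at 1.0 mm.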

How the results depend on the processing

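All 6 changes called among the 8 genes kept their direction in every alternative run, and of 1368 alternative values over all their comparisons 20 lost a call and 8 gained one. Another 94 had the opposite sign to the main value, none of them past the threshold. The Mu-active count from 1.0 to 1.5 mm (1) became 0 without array 2 of 1.0 mm, 2 without array 4 of 1.0 mm and 2 with no fold limit. Calls over all probes for that comparison reached up to 3976 among these alternatives, beside 505 in the main fit. The Mu-active count from 1.0 to 2.0 mm (1) became 0 with 75th percentile scaling, 0 with 1 fit per line, 0 without array 2 of 1.0 mm and 3 without array 4 of 1.0 mm. At the methods' own threshold, an unadjusted p with a 1.5-fold change, 1 gene differed between the lines at 2.0 mm in place of 0. Among the alternatives, which include that threshold, up to 1176 of all probes were called at 2.0 mm. The main fit called 364. Leaving out 1 array number at all lengths gave 0 to 2 genes called lower in Mu-inactive to 1.5 mm, 0 to 2 to 2.0 mm, 0 to 1 and 0 to 3 in Mu-active, and 0 to 1 in Mu-inactive from 1.5 to 2.0 mm. The cause of these losses was not tested, though fewer arrays also leave fewer degrees of freedom.

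No paired analysis was possible because no label ties arrays of different lengths to each other. The 2 lines of an array were compared as a pair throughout. Over all probes the calls between lines ranged from 24 to 917 at 1.0 mm (main 158), 10 to 837 at 1.5 mm (198) and 17 to 1176 at 2.0 mm (364). Calls between lengths ranged in Mu-inactive from 351 to 4719 (712), 1404 to 7133 (1862) and 364 to 4182 (807), and in Mu-active from 165 to 3976 (505), 1288 to 7147 (1894) and 336 to 3238 (839), for 1.0 to 1.5, 1.0 to 2.0 and 1.5 to 2.0 mm. Changes of the line difference ranged from 1 to 22 (4), 3 to 44 (22) and 0 to 3 (0). With 75th percentile scaling the share of lower among these calls fell from 52.8% to 26.4% and from 43.2% to 25.4% in Mu-inactive, and from 48.5% to 15.9% and from 47.7% to 26.9% in Mu-active, to 1.5 and 2.0 mm.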
